A study of Mus musculus with 4 samples.

Results

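Ccl1, which encodes a CC chemokine, and Ccr8, which encodes its receptor, are described here in mouse mucosal mast cells. Both genes were taken by name: every gene spot of the arrays that carries the name Ccl1 or Ccr8 is included. These are 2 genes of 28786 gene names on the array, and each has 1 probe with 1 spot per array (A_51_P299896 for Ccl1 and A_51_P225380 for Ccr8). The pair was chosen by the measured log2 ratios of these arrays, in which Ccl1 was high in IL-18 stimulated cells, so its values in that comparison are a description and carry no test. For the same reason its place among the genes tested, of which 33.4% passed the threshold in either direction (limma adjusted p at most 0.05), supports nothing.

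The cells were mast cells of the mucosal type, differentiated in culture. One group had been stimulated with IL-18, a cytokine related to IL-1, and was labelled with Cy5. The other group was unstimulated and was labelled with Cy3. Each of 4 biological replicates was 1 two-colour array that carried a stimulated sample and its own unstimulated control. The sources used here do not give strain, age, dose, duration or the cells from which the cultures were started. No array had the dyes the other way round, so dye and stimulation cannot be told apart for a single probe.

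CCL1 is a small secreted protein made by activated T cells and mast cells, and it attracts cells that carry CCR8. CCR8 is a membrane receptor that signals through Gi proteins, and it is best known on Th2 cells, regulatory T cells and skin-resident T cells. In the mouse, CCL8 is another ligand of CCR8. IL-18 acts through a receptor complex that uses MyD88 and leads to NF-kB activation, and many chemokine genes are NF-kB targets.

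The promoter of Ccl1 is shown because this gene had the highest mean log2 ratio in the comparison below. In RefSeq's annotation of GRCm38.p6, Ccl1 lies on chromosome 11 and Ccr8 on chromosome 9, and each has 1 annotated transcript. The window of 300 bases at the start of Ccl1, chr11:82179763-82180062 on the minus strand, runs from 250 bases before the start to 50 bases into the gene. Capitals mark matches to the NF-kB consensus.
Ccl1: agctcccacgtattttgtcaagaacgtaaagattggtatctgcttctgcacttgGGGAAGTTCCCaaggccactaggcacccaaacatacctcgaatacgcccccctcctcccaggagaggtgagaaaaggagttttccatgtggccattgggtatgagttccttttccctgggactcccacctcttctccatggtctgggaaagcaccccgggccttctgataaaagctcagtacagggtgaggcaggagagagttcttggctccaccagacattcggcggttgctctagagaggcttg
The capitals hold 2 overlapping matches, 1 on each strand, whose first bases lie 196 and 195 bases before the start. Of 32851 mouse promoter windows of this length, 8.46% hold such a match on either strand. The window of Ccl1 also holds 2 matches to the NFAT core GGAAAA, at 117 and 87 bases before the start, and 23.4% of all windows hold that core. No match to the AP-1 site TGANTCA (7.81% of windows) or to TATAAA (13.6% of windows) was found in it. The same 300-base window of Ccr8, on the plus strand of chromosome 9, holds no match (0) to any of these 4 motifs. A match is a string of letters in this window and no measure of binding.

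An array held 43379 spots for genes and 1639 for controls. The share of gene spots well above background was 57.9% to 62.7% in the stimulated channel and 49.9% to 54.0% in the unstimulated channel. No gene spot (0) was saturated. On the array of replicate 1, 6 spots had a local background over 1000 scanner units, the highest at 32440 in the unstimulated channel, and the scanner software had marked the background of all 6 as non-uniform. The background model fits 1 set of values to a whole array, and on this array it left a median corrected signal of 554 in the unstimulated channel, against 92.0 once marked backgrounds had been replaced by the array's median. The log2 ratios of Ccl1 and of the genes nearest to it are given in both ways below. Other ratios come from the backgrounds as given, and the replacement was chosen after the data had been seen. Across 16929 genes, which are no independent replicates, Pearson's r between arrays ran from 0.605 for replicates 1 and 4 to 0.907 for replicates 2 and 3.

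Mast cell markers were present. All 12 of the 12 mast cell markers listed, among them the receptor tyrosine kinase gene Kit and the mucosal chymase genes Mcpt1 and Mcpt2, were well above background in both channels on all 4 arrays. Of all distinct probes, 48.4% met that mark. T cells are the other usual source of CCL1. Of 10 T cell markers, 1 was well above background in both channels on all 4 arrays. In all, 5 could be tested, some of them through the stimulated channel alone. Their log2 ratios (stimulated over unstimulated) ran from -0.03 for Cd5 to 0.17 for Cd3e. Cd8a and Foxp3 were not well above background in either channel on any array. The 16 probes of the T cell list summed, after subtraction of the local background and with no adjustment for dye, to between 565 and 675 units in the stimulated channel and between 846 and 979 units in the unstimulated channel. Genes listed as markers of other cells gave signal too. All 3 basophil markers were well above background in both channels on all 4 arrays, and of these Mcpt8, at 0.41 ± 0.09, and Cd200r3, at 0.24 ± 0.09 (mean log2 ratio, SD, n = 4 each), passed the threshold in the higher direction by limma. Of 8 macrophage markers, 6 were well above background in both channels on all 4 arrays, with Adgre1 higher at 0.28 ± 0.17 (SD, n = 4), while C1qa and C1qc were never well above background. Summed in the same way, the basophil probes gave 48580 to 71680 units in the stimulated and 17950 to 19990 units in the unstimulated channel, and the macrophage probes 2546 to 3547 and, in the unstimulated channel, 1685 to 2027 units. The 15 mast cell probes gave 1689000 to 1895000 units in the stimulated and 389700 to 462600 units in the unstimulated channel. All these sums hold the difference between the dyes and are no measure of cell content. The part of other cells in the Ccl1 signal was not tested. In such bulk cultures, more cells that make a transcript and more transcript per cell cannot be told apart.

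Ccl1 was much brighter in IL-18 stimulated cells than in unstimulated cells of the same replicate. Its mean spot signal was 3501, 2098, 2602 and 2495 scanner units in the stimulated samples of replicates 1, 2, 3 and 4. In the unstimulated samples of the same replicates it was 347, 276, 231 and 248 units. The lowest stimulated sample lay above the highest unstimulated one. Uncorrected signals hold the difference between the dyes, and 69.3% of the tested genes had their groups apart in this direction. After normalization 17.2% did, and Ccl1, at 10.7 to 11.2 in stimulated and 8.50 to 9.38 in unstimulated samples (normalized log2 signal), was among them. The means were 2674 ± 592 units in stimulated cells and 275 ± 50.9 units in unstimulated cells (SD, n = 4 each).

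Ccl1 was also detected without IL-18. Its spot was well above background in 4 of 4 stimulated and 4 of 4 unstimulated samples, and it was brighter than 100% of the 153 negative control spots in every sample. The signal was 55.2 to 77.8 times the local background in the stimulated samples and 7.45 to 11.5 times in the unstimulated samples. Of the 41174 distinct probes, 48.4% were well above background in both channels on all 4 arrays, so detection of this kind was common.

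**Figure D1:**
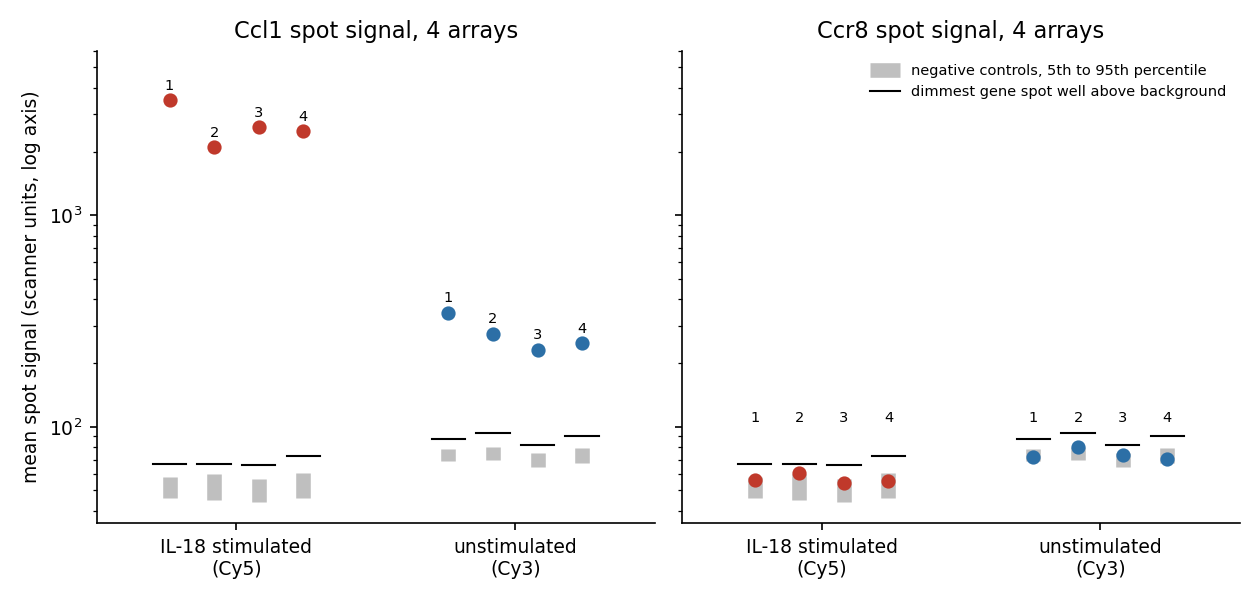
Mean spot signal of Ccl1 (left panel) and Ccr8 (right panel) in scanner units on a log axis, IL-18 stimulated samples in red and unstimulated samples in blue. Points are single samples numbered by replicate, grey bars run from the 5th to the 95th percentile of the negative control spots of that array and channel, and black lines mark the dimmest gene spot well above background; Ccl1 lies between 2098 and 3501 units in stimulated and between 231 and 347 units in unstimulated samples, while Ccr8 lies under the black line in every sample.

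The Ccl1 spots were even and of good quality. Each spot was read over 63 to 66 pixels, and the pixels varied by 17.1% in stimulated and by 17.0% in unstimulated samples (mean coefficient of variation over 4 spots each). The 2 channels of a spot correlated over its pixels with r of 0.813, 0.795, 0.725 and 0.668 for replicates 1 to 4. No Ccl1 spot was marked as saturated or as an outlier.

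After background correction and loess normalization the log2 ratio of Ccl1, stimulated over unstimulated, was 1.79, 2.23, 2.66 and 2.44 for replicates 1 to 4. The mean was 2.28 ± 0.37 (SD, n = 4), which is 4.86-fold. The ratio was positive on 4 of 4 arrays, and the lowest value came from replicate 1, the array with the extreme local backgrounds. With marked backgrounds replaced, the ratios were 2.41, 2.23, 2.68 and 2.45, with a mean of 2.44 ± 0.19 (SD, n = 4) or 5.44-fold. That change moved the value of replicate 1 by more than those of the other 3 arrays.

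The size of the Ccl1 ratio depended on the correction step. The uncorrected signals gave a mean log2 ratio of 3.27 ± 0.24, and the software's background-subtracted signals gave 3.70 ± 0.27 (SD, n = 4 each). These carry the overall difference between the dyes. The loess step, which takes out the dye trend at each brightness, removed 0.80 ± 0.14 from the ratio (SD, n = 4). The ratio that the authors' scanner software computed, on its own background and dye normalization, was 2.67, 2.59, 3.04 and 2.88 on the log2 scale, with a mean of 2.79 ± 0.20 (SD, n = 4) or 6.93-fold. In each of these ways Ccl1 was higher in stimulated cells on each of the 4 arrays, with mean log2 ratios between 2.28 and 3.70.

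**Figure D2:**
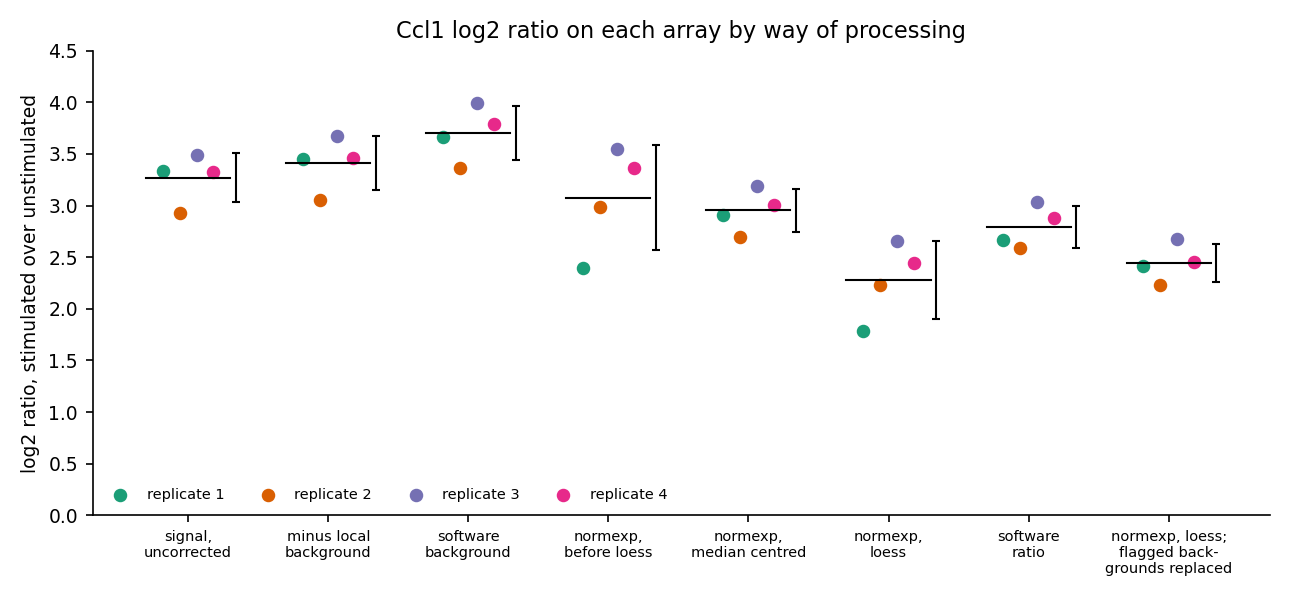
Log2 ratio of Ccl1, IL-18 stimulated over unstimulated, on each array (coloured points) after different processing steps, with the mean (black line) and SD over 4 arrays (bar at the right). The mean is 3.27 for uncorrected signals, 2.28 after normexp and loess, 2.79 for the software's ratio and 2.44 with marked backgrounds replaced; replicate 1 is the lowest array in the normexp and loess values at 1.79 and lies at 2.41 after the replacement.

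The arrays lay on 2 slides, scanned separately. Ccl1 had a mean log2 ratio of 2.01 on the slide of replicates 1 and 2 and of 2.55 on the slide of replicates 3 and 4 (n = 2 each). The direction was the same on both slides.

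Ccl1 stood at the top of the tested genes in the mean, though not under every processing. To be tested, a gene needed a probe that 3 or more of the 4 arrays called well above background in 1 and the same channel, which held for 16969 genes. By its mean log2 ratio Ccl1 ranked 1 of 16969, followed by Nfkbia at 2.16. On single arrays it ranked 3 for replicate 1, where Il1b was the highest at 2.03, and 1 for each of replicates 2, 3 and 4. With marked backgrounds replaced it ranked 1 on each of the 4 arrays. By the software's ratio it ranked 4, behind Csf2 at 3.17 ± 0.45, Sucnr1 at 2.94 ± 0.60 and Irg1 at 2.90 ± 0.13 (SD, n = 4 each). By median centring without loess it ranked 4 as well, and Nfkbia was the highest at 3.24.

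Other genes as bright as Ccl1 had lower ratios, which follows from its place at the top of the mean ratios and is no test. Within 0.5 log2 units of its brightness lay 1986 other genes, with a median log2 ratio of 0.06 and a 99th percentile of 0.69. The highest of them was Btg2, an antiproliferative immediate-early gene, at 1.23.

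**Figure D3:**
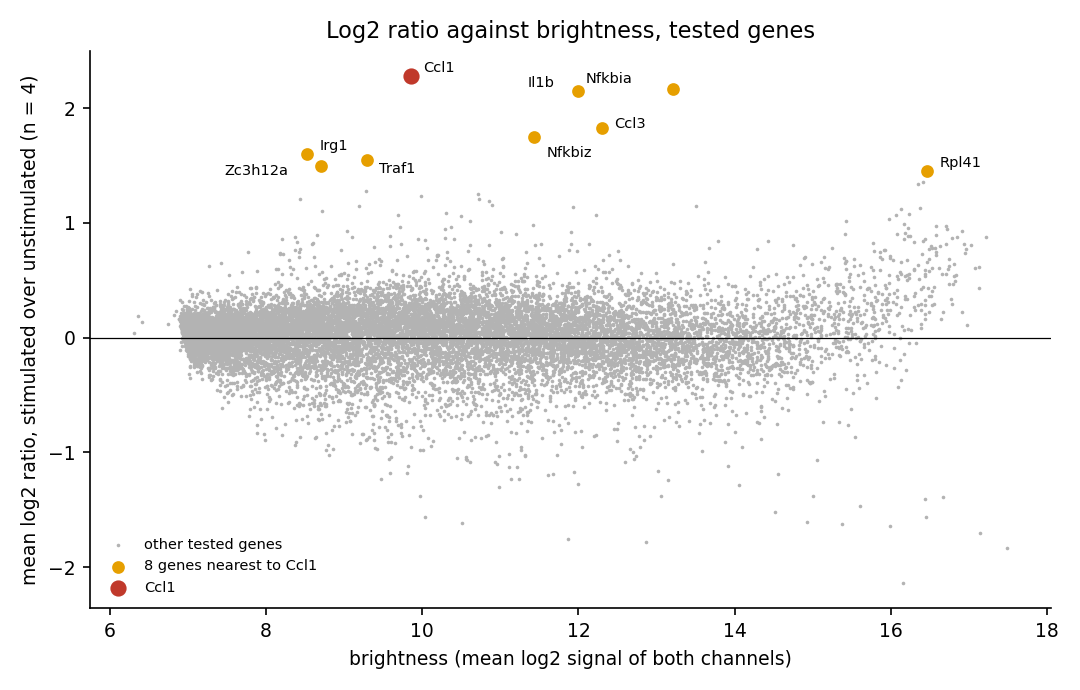
Mean log2 ratio over 4 arrays, IL-18 stimulated over unstimulated, against brightness (mean log2 signal of both channels) for the 16969 tested genes (grey), with Ccl1 in red and the 8 genes nearest to it in orange. Ccl1 lies highest at 2.28, with a brightness of 9.86, and the highest other gene within 0.5 units of that brightness is at 1.23.

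Likeness to Ccl1 over the 4 arrays was measured as the Euclidean distance between the log2 ratios of 2 genes, and it follows the size of the ratio as well as its course over the arrays. Nfkbia, which encodes the NF-kB inhibitor IkB alpha, was nearest at a distance of 0.46, with a mean log2 ratio of 2.16 ± 0.17 (SD, n = 4). Il1b, the gene of the cytokine IL-1 beta, followed at 0.52, with a mean log2 ratio of 2.15 ± 0.20 (SD, n = 4). Ccl3, the gene of another CC chemokine, was the third at 1.02.

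The other five were farther away. They were Nfkbiz, which encodes a nuclear IkB protein, at a distance of 1.20, Irg1, which encodes the enzyme that makes itaconate, at 1.42, and Traf1, an adaptor of TNF receptors, at 1.47. Zc3h12a, an RNase that degrades inflammatory messengers, was at 1.63 and Rpl41, a ribosomal protein gene, at 1.71. All 8 had a positive ratio on 4 of 4 arrays, which their closeness to Ccl1 fixed in advance. The same 8 genes were nearest with marked backgrounds replaced, but in another order. Il1b was then nearest at 0.54, ahead of Nfkbia at 0.57, and Irg1 came before Ccl3, at 1.06 against 1.22. That change moved the ratio of replicate 1 to 2.17 for Irg1, against 0.83 with backgrounds as given, and to 1.73 for Zc3h12a, against 0.78. Of the 8, 7 had a promoter window in the RefSeq table. Among these 7, 1 window, that of Nfkbia, held a match to the NF-kB consensus, beside 8.46% of all windows.

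**Figure D4:**
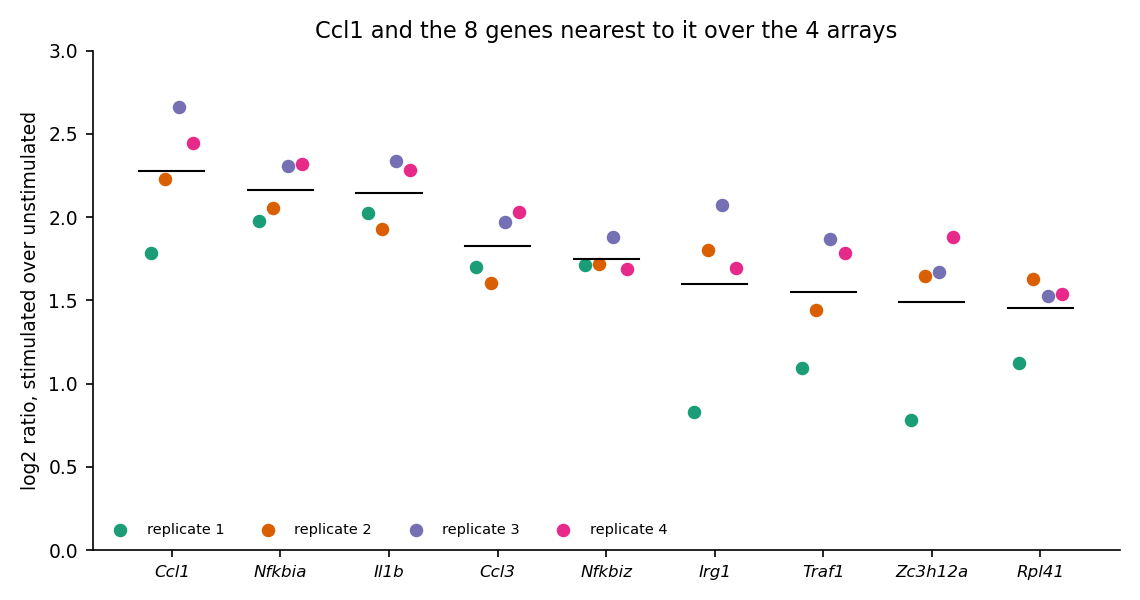
Log2 ratio, IL-18 stimulated over unstimulated, of Ccl1 and of the 8 genes nearest to it on each array (coloured points), with the mean over 4 arrays (black line), ordered by distance. Means run from 2.28 for Ccl1 to 1.45 for Rpl41, with local backgrounds as given; the low points of replicate 1 for Ccl1, Irg1, Traf1 and Zc3h12a are not the lowest of their genes once marked backgrounds are replaced.

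Ccr8 was not well above background in any sample of either group. Its mean spot signal was 56.1, 60.2, 54.1 and 55.4 scanner units in the stimulated samples of replicates 1 to 4. In the unstimulated samples of the same replicates it was 71.9, 80.6, 73.6 and 70.1 units. The 2 channels have different dye baselines, and the negative control spots showed the same offset, with medians of 47.8 to 49.6 units in the stimulated channel and 68.7 to 73.9 units in the unstimulated channel.

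The Ccr8 spot was well above background in 0 of 4 stimulated and 0 of 4 unstimulated samples. After the software's background subtraction its signal was 1.57, 5.33, 0.11 and -1.10 units in stimulated samples and -0.48, 3.42, 1.49 and -5.03 units in unstimulated samples. The values lay on both sides of 0 in each group. The software called 1 of these 8 signals, that of the stimulated sample of replicate 2, positive and significant against its background. The dimmest gene spots called well above background had 66.3 to 72.5 units in the stimulated channel and 81.9 to 93.3 units in the unstimulated channel, and Ccr8 stayed under that line on every array.

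Against the 153 negative control spots of its own array, Ccr8 was brighter than 90.2%, 95.4%, 87.6% and 82.4% of them in the stimulated samples of replicates 1 to 4. In the unstimulated samples it was brighter than 26.1%, 95.4%, 92.2% and 18.3% of them. Some negative controls were brighter in every sample, though in replicate 2 both channels lay above the 95th percentile of the controls. The pixels of the 2 channels correlated with r of 0.13, 0.11, -0.01 and 0.07 in the Ccr8 spots of replicates 1 to 4, far below the values of the Ccl1 spots. No ratio or fold is given for Ccr8, since neither channel was well above background on any array. It shared this with 34.7% of all distinct probes (14285 of 41174). At this signal a difference in Ccr8 between the groups was not detectable.

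Ccl1 lies in a row of CC chemokine genes on chromosome 11, and its neighbours behaved unequally. In RefSeq's order the row runs Ccl2, Ccl7, Ccl11, Ccl12, Ccl8 and Ccl1, and the next protein-coding gene is Tmem132e. Ccl2, which encodes a monocyte attractant, had a log2 ratio of 0.43, 0.40, 0.43 and 0.53 for replicates 1 to 4. It was 1.37-fold higher in stimulated cells (mean log2 ratio 0.45 ± 0.06, SD, n = 4, limma adjusted p = 0.00162). Ccl7, which attracts monocytes too, had log2 ratios of 0.06, 0.36, 0.27 and 0.19 and a mean of 0.22 ± 0.13 (SD, n = 4, limma adjusted p = 0.0284), and its other tested probe, at 0.20, did not pass the threshold. On each array both ratios were lower than that of Ccl1.

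The 3 genes between them and Ccl1 were at or near the detection limit. Ccl11 and Ccl12, which encode an eosinophil and a monocyte attractant, were not well above background in any stimulated or unstimulated sample. Ccl8, the gene of the other mouse ligand of CCR8, was well above background in 1 of 4 stimulated samples and in 0 of 4 unstimulated samples. Its mean signal was 56.6, 55.7, 56.2 and 83.4 units in the stimulated samples of replicates 1 to 4 and 77.9, 75.6, 70.8 and 78.5 units in the unstimulated samples. Only the stimulated sample of replicate 4 stood apart, and Ccl8 was not tested.

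The other CC chemokine ligand genes are given next, read against all genes. Of 16969 tested genes, 19.7% passed the threshold (limma adjusted p at most 0.05) in the higher direction and 13.7% in the lower direction, 33.4% in all. Of 20 CC ligand genes listed besides Ccl1, 19 were on the array and 12 could be tested. Of these 12, 8 were higher in stimulated cells (66.7%), and 4 did not pass. The median log2 ratio of the 12 was 0.27, against 0.04 for all tested genes. Without replicate 2, or without replicate 3, 5 CC ligand genes passed in the higher direction.

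Ccl3, Ccl4 and Ccl5 encode inflammatory attractants of monocytes and T cells. Ccl3 had the highest ratio of the list, with log2 ratios of 1.70, 1.60, 1.97 and 2.03 and a mean of 1.83 ± 0.21 (SD, n = 4, limma adjusted p = 0.000348). Ccl5 was at 0.85 ± 0.12 and Ccl4 at 0.81 ± 0.15 (mean log2 ratio, SD, n = 4 each), and both rose. Ccl17, whose product is a ligand of CCR4, rose by 0.47 ± 0.16, and Ccl24, an eosinophil attractant gene, by 0.27 ± 0.14 on the log2 scale (SD, n = 4 each). The other tested probe of Ccl24, at 0.13, did not pass. Among the genes that did not pass, the log2 ratios ran from -0.18 for Ccl28 to 0.15 for Ccl9. 5 CC ligand genes, Ccl11, Ccl12, Ccl20, Ccl21a and Ccl22, were never well above background, beside 34.7% of all distinct probes.

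**Figure D5:**
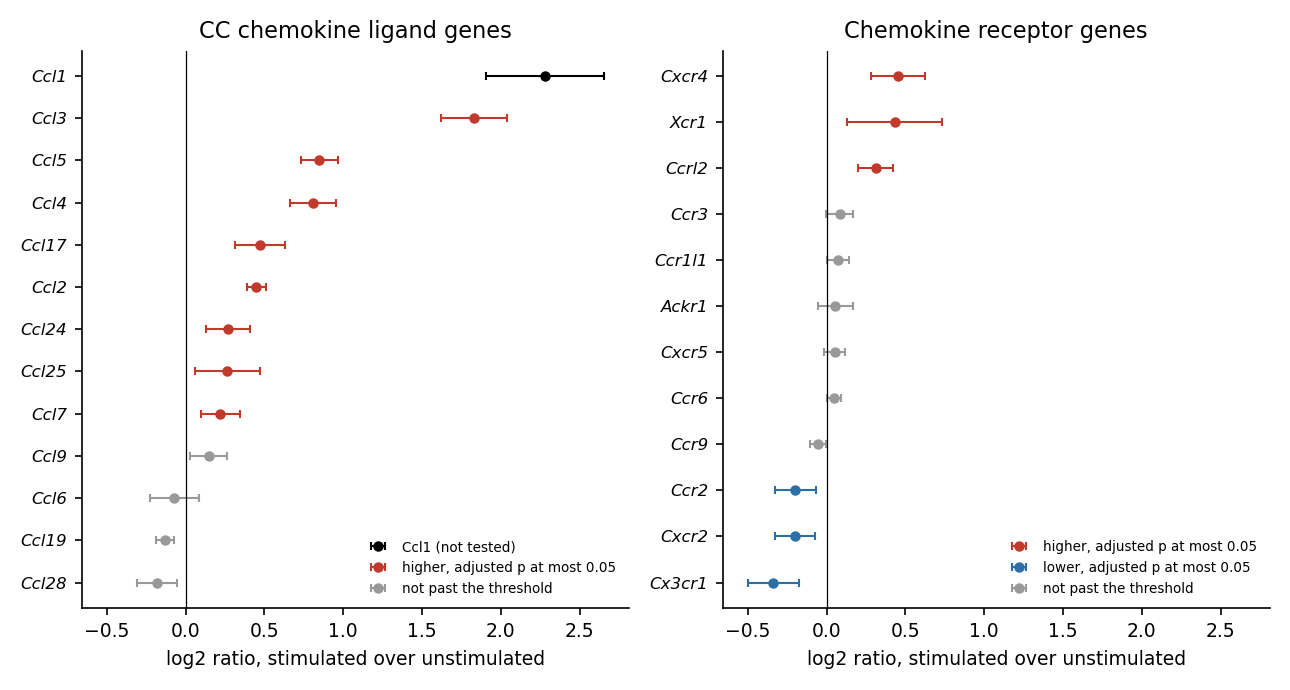
Mean log2 ratio, IL-18 stimulated over unstimulated, with SD over 4 arrays, for Ccl1 and the tested CC chemokine ligand genes (left panel) and 12 of the 13 tested chemokine receptor genes (right panel); colours give the limma call at an adjusted p of at most 0.05, and Ccl1 carries no test. Ccl1 at 2.28 and Ccl3 at 1.83 lie above the other ligands, and the receptors lie between -0.34 and 0.45; Ccr8 is not shown because it was not well above background.

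Ccr8 was not alone among chemokine receptor genes in its low signal. Of 23 other receptor genes on the array, 13 could be tested. A further 7 of the 23 were never well above background, among them Ccr4, which like Ccr8 is known from Th2 cells. Of all distinct probes, 34.7% were never well above background in either channel. Of the 13 tested, 3 were higher (23.1%) and 3 were lower (23.1%) in stimulated cells, beside 19.7% and 13.7% of all tested genes. The median of the 13 was 0.06 on the log2 scale. No receptor gene (0) passed in the lower direction without replicate 2 or without replicate 3, by limma.

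Cxcr4, the receptor gene for CXCL12, was the highest of the receptors. Its mean signal was 678, 625, 696 and 768 units in stimulated samples and 341, 289, 293 and 292 units in unstimulated samples. Its log2 ratio was 0.45 ± 0.17 (SD, n = 4, limma adjusted p = 0.006), and both of its probes rose. Xcr1, a receptor gene of cross-presenting dendritic cells, rose by 0.43 ± 0.30, and Ccrl2, an atypical receptor gene, by 0.31 ± 0.11 on the log2 scale (SD, n = 4 each). Of 7 dendritic cell markers, 4 could be tested, of which Xcr1 was higher and Itgax lower by its brighter probe at -0.21 but higher by its other probe at 0.30, while Clec9a and Ccr7 were never well above background; the part of such cells in the Xcr1 ratio was not tested.

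Cx3cr1, the fractalkine receptor gene, was the lowest of the receptors at -0.34 ± 0.16 (mean log2 ratio, SD, n = 4), but at 0.12 with median centring. Ccr2, which encodes the receptor of CCL2 and CCL7, was lower by its brighter probe at -0.20 ± 0.13 (SD, n = 4), while its other probe was at 0.15, and median centring turned the brighter probe to 0.35. With median centring the median of all genes was 0.53, above both values. By the software's ratio Cx3cr1 was at -0.48 and the brighter probe of Ccr2 at -0.27. Cxcr2, a receptor gene for neutrophil attractants, fell by 0.20 ± 0.13 on the log2 scale (SD, n = 4).

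Receptor genes near the detection limit included Ccr1 and Ccr3. Ccr1 was well above background in 2 of 4 stimulated and 0 of 4 unstimulated samples, and was not tested. Its normalized stimulated signal was set against a floor in the unstimulated channel. On each array the floor was the lowest gene signal well above background there, or the gene's own unstimulated signal where that was higher. Against this floor the stimulated signal of Ccr1 was 1.03-fold, a value without an error that by itself shows no rise. Ccr3, the eotaxin receptor gene, was well above background in 4 of 4 stimulated and 0 of 4 unstimulated samples. Its mean signal was 73.4, 75.2, 78.6 and 77.2 units in stimulated samples and 76.0, 82.5, 81.6 and 78.9 units in unstimulated samples. The dye baselines differ, and its log2 ratio did not pass the threshold (0.08 ± 0.09, SD, n = 4, limma adjusted p = 0.219). It did pass by the software's ratio, at 0.92 (limma adjusted p = 0.00523), and by the value table of the series, also at 0.92. The call for Ccr3 thus depended on the processing. On the same basis as for Ccr1, the stimulated signal of Ccr3 was 1.02-fold, again without an error.

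Genes of the Gi pathway, through which CCR8 signals, were all detected although the receptor was not. Of 24 listed genes, 24 were well above background in both channels on all 4 arrays, beside 48.4% of all distinct probes. Of these 24, 7 were higher (29.2%), 7 were lower (29.2%) and 10 did not pass, beside 19.7% and 13.7% of all tested genes. Their median log2 ratio was -0.01. With median centring 16 were higher and 0 lower by limma, and the median of all genes was then 0.53. By the software's ratio, which has its own dye normalization, 8 were higher and 9 lower by limma. The lower calls were therefore lost with median centring but not with the software's ratio. Without replicate 2, and likewise without replicate 3, 3 were higher and 3 lower.

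Of the 7 Gi pathway genes that rose, 5 encode regulators of G protein signalling, which speed the shut-off of G proteins. Other listed genes of this family did not rise: Rgs14 was lower at -0.38, while Rgs16 at -0.04 and Rgs19 at 0.18 did not pass. Rgs2 had a mean log2 ratio of 0.68 ± 0.07 (SD, n = 4, limma adjusted p = 0.00075), although its other tested probe was at -0.03. Rgs1 rose by 0.63 ± 0.23, Rgs18 by 0.40 ± 0.06, Rgs10 by 0.26 ± 0.15 and Rgs13 by 0.23 ± 0.07 on the log2 scale (SD, n = 4 each). Pik3r5, a regulatory subunit gene of the PI3 kinase gamma that G proteins activate, rose by 0.26 ± 0.19 (SD, n = 4). Rgs10, Rgs13 and Pik3r5 did not pass without replicate 2 or without replicate 3.

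The genes that fell included subunits of the G protein itself, all of which turned to a ratio above 0 with median centring. Not every listed subunit gene fell. Gng2 was higher at 0.16 ± 0.06 (mean log2 ratio, SD, n = 4), and Gnai3 at 0.11 and Gnb1 at 0.003 did not pass. Of the probes of Gnb1, 2 were lower, and its lowest was at -0.71. Gnb2, a beta subunit gene, was at -0.996 ± 0.162 (mean log2 ratio, SD, n = 4, limma adjusted p = 0.00075), but at 0.01 with median centring. Gnai2, the main inhibitory alpha subunit gene of leukocytes, was at -0.81 ± 0.31 (SD, n = 4), but at 0.08 with median centring. By the software's ratio Gnb2 was at -0.98 and Gnai2 at -0.82. Gnai1, Rgs14, Gnb4 and Plcb2 had log2 ratios between -0.41 and -0.26, of which only Rgs14 passed without replicate 2 and without replicate 3, and probes of Gnai1 and Gnb4 disagreed, with other probes as high as 0.13 and 0.02.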

How the data were processed

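RNA of IL-18 stimulated (Cy5) and unstimulated (Cy3) cells was read on 4 two-colour arrays. The deposited intensity values are spot means, local background medians and background-subtracted signals, made by the authors with Agilent Feature Extraction 9.1, per the file headers. The deposited log10 ratios and the software's p-values come from the same program, per the file headers, and a deposited table of the series holds log10 ratios too. Flags are the software's.

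Background was corrected with normexp (offset 50) on spot means and local background medians, followed by loess within each array, in limma 3.58.1 under R 4.3.3. Control spots and outliers had no weight. Log2 ratios of tested probes (3 of 4 arrays well above background in the same channel, at least 3 values) were fitted with lmFit and eBayes, two-sided, with Benjamini-Hochberg adjustment over 24101 probes and a threshold of 0.05. Each ratio is the difference within a pair, so the fit is paired. A gene is its brightest tested probe. Of 41174 probes, 22951 were named through RefSeq accessions; the rest keep the array's names. Steps were tested on simulated data with marked backgrounds replaced, so extreme local backgrounds were not part of that test.

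The members and lists were chosen with earlier results of these data known. Named genes were both members, up to 6 passing list genes in each direction, 9 fixed chemokine and receptor genes, the 8 genes nearest to Ccl1, and marker extremes. Csf2, Sucnr1, Btg2, Grk2, Ccl9, Ccl28, Rgs16, Rgs19, Gng2, Gnai3 and Gnb1 were named after their values were seen. The replacement of marked local backgrounds by the array median was added after seeing the data, including the value of Ccl1. The number of arrays limits the precision, and nothing in the labels says how independent the 4 cultures were beyond calling them biological replicates. 1 tested chemokine receptor gene is counted but not reported here as a single gene.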

Additional observations from a re-analysis of the deposited data

Results flagged for a closer look

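Among 45 sets of 4 values checked for a sample that stands apart from the others, 1 had one, and chance gives about 1 in 20. It was Nfkbiz, among the 8 genes nearest to Ccl1, whose log2 ratio of 1.88 in replicate 3 lay above those of the other arrays, at 1.72, 1.72 and 1.69. No signal or ratio of Ccl1 or Ccr8 was picked out in this way.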

How the results depend on the processing

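Ccl1 was higher in stimulated cells under all 17 alternatives, with a mean log2 ratio from 2.15 to 2.99. Settings that change only the test, the filter or the averaging of probes cannot move this value, which stayed at 2.28. The mean was 2.79 by the software's ratio and by the value table of the series, which hold nearly the same numbers. It was 2.95 with median centring and 2.99 with scale normalization between arrays, and it ran from 2.15 to 2.45 when 1 replicate was left out. No ratio of Ccr8 is reported under any of them, since neither channel was well above background.

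The counts of genes past the threshold moved more. With marked backgrounds replaced, 4489 genes were higher and 3498 lower, and 2 CC ligand genes were lower. Scale normalization gave 0 calls in every count by limma, with 3657 genes at an unadjusted p under 0.05. Median centring moved the median of all genes to 0.53 and gave 10702 higher and 77 lower calls, so 99.3% of calls were higher, against 59.0% in the reported fit. It also gave 1 CC ligand gene lower, 6 receptor genes higher and 1 lower, and 16 Gi pathway genes higher and 0 lower. Under it the ratio turned positive for Ccr2 (0.35), Cx3cr1 (0.12), Gnai2 (0.080), Gnb2 (0.0067), Gnai1 (0.23), Gnb4 (0.38), Plcb2 (0.31), Grk2 (0.63) and Rgs14 (0.53). The software's ratio and the value table each gave 7 receptor genes higher and 2 CC ligand genes lower. Normexp without an offset gave 1 CC ligand gene lower, and averaging a gene's probes gave 2. Without the replicate pairing (no replicate block) 1 CC ligand gene and 1 receptor gene were lower, and 4 Gi pathway genes were higher.

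When 1 replicate was left out, 1074 to 3485 genes were higher and 605 to 2965 lower, with the lowest counts without replicate 2. CC ligand genes ran from 5 to 9 higher and from 0 to 1 lower, receptor genes from 2 to 3 higher and from 0 to 3 lower, and Gi pathway genes from 3 to 7 higher and from 3 to 10 lower. The cause of these moves was not tested. Ccr8, Ccl8 and Ccl11 lie at or near the detection limit, where signal limits what can be seen.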
